A study of Homo sapiens with 3 samples.

Results

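Of the 31600 cell barcodes deposited for 3 single-cell libraries, 2634 held at least 500 unique molecular identifiers (UMIs, each of which marks a captured mRNA molecule) with over 20% of them on the 13 protein-coding genes of the mitochondrial genome (MT- genes). These are barcodes that the quality filter of the study left out. They were chosen by that measured share alone and were split at 50%, into 1239 barcodes with over 20 to 50% MT- UMIs and 1395 with over 50%. They were compared, within each library, with the 28966 barcodes at or below 20% MT- UMIs, called the comparison barcodes here. Every gene was counted against the UMIs without MT- genes, which keeps the genes that made the choice out of the total.

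OVCAR3, a human line established from high-grade serous ovarian cancer, was kept for 48 hours with the solvent DMSO, with 50 μM RAC1i in DMSO, or with 50 μM RAC1i and 5 μM EZH2i in DMSO (Combo). RAC1i, the compound NSC23766, keeps the small GTPase RAC1 from being activated. EZH2i, the compound GSK126, inhibits EZH2, the enzyme that methylates histone H3 to silence genes. Cells were lifted from the plate with trypsin and captured on the 10x Genomics Chromium 3′ system, and each treatment is 1 library of 1 cell line, so no test between treatments was possible and ratios between libraries are descriptions. The same counts within each library gave 3 paired sets of sums, over which the classes of barcodes were tested.

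The mitochondrial genome is transcribed as long strands that are cut into rRNAs, tRNAs and mRNAs for subunits of the respiratory chain, and these transcripts stay inside the organelle behind its membranes. Most nuclear mRNAs are found in the cytosol, while some long noncoding RNAs, such as MALAT1 in nuclear speckles and NEAT1 in paraspeckles, stay in the nucleus. A high mitochondrial share is widely used in single-cell work as a mark of damaged cells, and it is also found in intact cells rich in mitochondria.

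Of the 1395 barcodes with over 50% MT- UMIs most were from DMSO. The DMSO library held 1153, 11.4% of its barcodes (95% Clopper-Pearson interval 10.8 to 12.1%), against 138 in RAC1i (1.17%, 0.986 to 1.38%) and 104 in Combo (1.07%, 0.872 to 1.29%). The class over 20 to 50% was of like size in the 3 libraries, with 439 barcodes in DMSO (4.36%, 3.97 to 4.78%), 396 in RAC1i (3.36%, 3.05 to 3.71%) and 404 in Combo (4.14%, 3.75 to 4.55%). All intervals cover counting error only. With 1 library per treatment, treatment, culture and capture cannot be told apart in these shares.

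**Figure D1:**
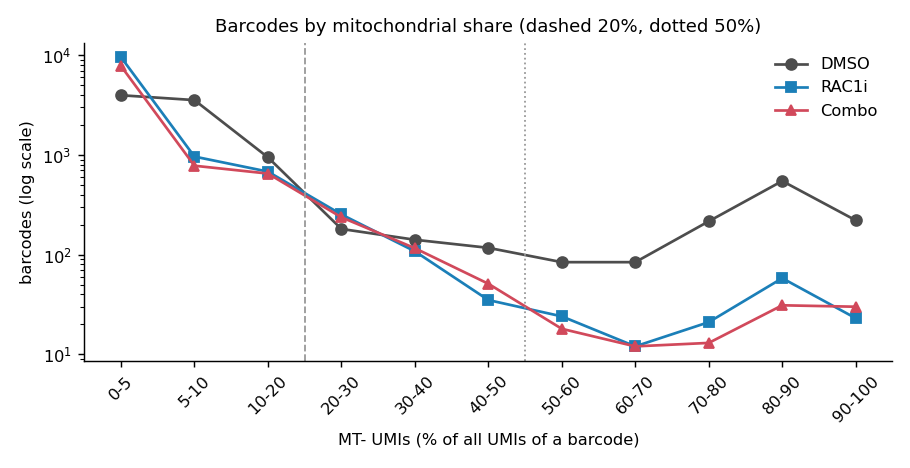
Number of barcodes (vertical axis, log scale) by the share of MT- UMIs of a barcode (horizontal axis, %), 1 line per library, with vertical lines at 20% and 50%. Bins are 5 points wide up to 10% and 10 points wide above. Each library has a second rise, where the bin at 80 to 90% holds 548 DMSO, 58 RAC1i and 31 Combo barcodes.

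The members held more MT- UMIs than the comparison barcodes at the median, and far fewer other UMIs, which the rule selects for. In DMSO the median MT- UMIs of a barcode were 1456 in the comparison barcodes, 2103 at over 20 to 50% and 1994 at over 50%, whereas the median of all other UMIs went from 22502 to 4066 and 309. The DMSO comparison barcodes varied widely in this: 3977 with 0 to 5% MT- UMIs held a median of 74 of them, while the 3555 at 5 to 10% and 947 at 10 to 20% held 2091 and 2446, more than the members over 50%. In RAC1i the medians were 311, 404 and 768.5 MT- UMIs and 19569, 1034 and 180.5 other UMIs. In Combo they were 345, 469 and 1101.5 MT- UMIs and 23507, 1205.5 and 218 other UMIs. At over 50%, then, a barcode held 1.37 times the median MT- UMIs of the comparison barcodes in DMSO, 2.47 times in RAC1i and 3.19 times in Combo, while its other UMIs were 72.8, 108 and 108 times fewer. The members held 21.8% of all MT- UMIs of the DMSO library but 1.45% of its other UMIs, with 6.87% and 0.221% for RAC1i and 8.16% and 0.25% for Combo.

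**Figure D2:**
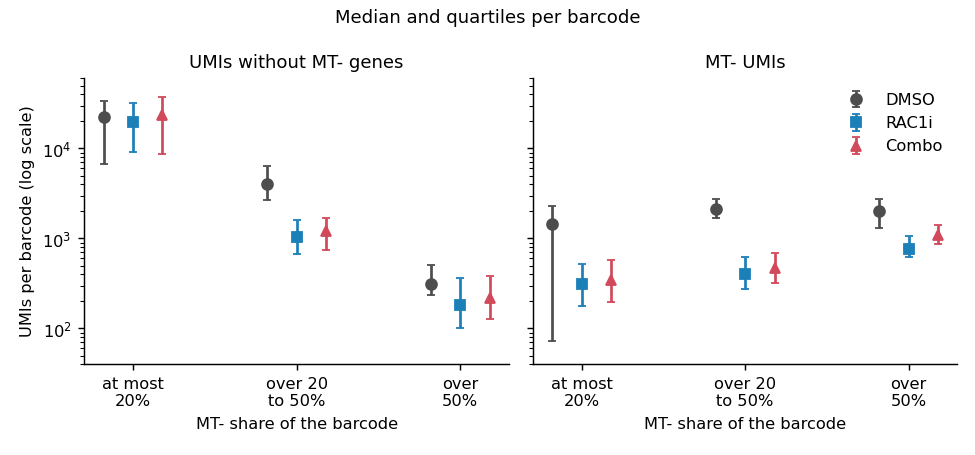
UMIs without MT- genes and MT- UMIs of a barcode (vertical axes, log scale) for the 3 classes in each library; points are medians and bars the quartiles. MT- UMIs change by at most 3.19 times between the medians of a library, while the other UMIs fall from 19569 to 23507 in the comparison barcodes to 180.5 to 309 at over 50%.

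Barcodes on either side of the limits were close in depth. In DMSO the 56 barcodes at 18 to 20% had a median of 9142 other UMIs and the 51 at 20 to 22% a median of 9359, and in RAC1i the 100 just inside and 71 just outside had medians of 1306.5 and 1227. At 50% the 20 DMSO barcodes on either side had medians of 2163 and 2524.5 other UMIs. Most of the class over 50% lay far from its limit: 769 of its DMSO barcodes (66.7%), 81 in RAC1i (58.7%) and 61 in Combo (58.7%) were above 80%, with medians of 262, 106 and 138 other UMIs. The study's limit of over 1000 genes would have kept 400 of 439 members at over 20 to 50% in DMSO but 94 of 396 in RAC1i and 111 of 404 in Combo, and 68, 1 and 0 at over 50%.

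The members held UMIs of the markers of the cell line. All 12 epithelial markers of OVCAR3 on the list were detected in each of the 3 classes, at a summed 2210 to 4830 CPM (UMIs per 1000000 UMIs without MT- genes) at over 50% and 2420 to 4860 CPM in the comparison barcodes. Of 8 leukocyte markers 4 were detected at over 20 to 50% and 1 at over 50%, at 3.21 to 32.9 and 0 to 55.0 CPM (38 and 3 UMIs) beside 2.03 to 9.46 CPM in the comparison barcodes, with CD3E, CD3D, MS4A1 and NKG7 at 0 in both. Fibroblast and endothelial markers reached 19.7 to 77.1 CPM at over 20 to 50% and 27.5 to 62.3 CPM at over 50% against 7.34 to 7.69 CPM, with COL1A2, DCN and LUM at 0 in both classes of members. The 6 erythrocyte and platelet markers gave 0 to 16.1 CPM at over 20 to 50% and 0 UMIs at over 50%, which allows up to 4.51 CPM, beside 0.169 to 2.70 CPM. COL1A1, a collagen of fibroblasts, passed the filter for the wider test of over 20 to 50%, described below, only through the members, with a log2 ratio of 2.58, at 17.9 against 5.88 CPM in DMSO, 46.5 against 5.74 CPM for RAC1i and 50.2 against 5.59 CPM for Combo. With all barcodes, fibroblast and endothelial markers at over 20 to 50% were at 9.57 times the comparison level in RAC1i and 10.2 in Combo. At 500 to 5000 UMIs without MT- genes, a range described below, the ratios were 1.46 (95% exact interval 0.989 to 2.09) and 1.35 (0.944 to 1.89). In DMSO the ratio in that range was 4.40 (2.22 to 8.68). Leukocyte markers were there at 1.61 (0.866 to 2.81) in RAC1i, 1.13 (0.592 to 1.99) in Combo and 3.09 (0.258 to 26.9) in DMSO. The part of other cells in the results was not tested. Pairs of libraries shared 29 or 30 barcodes, of which none was a member in both.

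Among the MT- UMIs themselves, the abundant transcripts changed their share by at most 1.40 times, and some rarer ones by more. MT-CO3 or MT-CO2, which encode subunits of cytochrome oxidase, had the largest share in each of the 9 sums. MT-ATP6, which encodes a subunit of ATP synthase, made up 13.6% of MT- UMIs in the DMSO comparison barcodes, 14.8% at over 20 to 50% and 16.6% at over 50%, with 10.8, 13.6 and 15.2% in RAC1i and 11.1, 13.2 and 14.9% in Combo, so that its order over the classes was the same in the 3 libraries. MT-CO2 went the other way between the comparison barcodes and those over 50%, from 18.5 to 16.9% in DMSO, from 25.1 to 22.5% in RAC1i and from 23.5 to 20% in Combo. MT-ND6, the only one of these mRNAs encoded on the light strand, was higher at over 20 to 50% (0.619% beside 0.447% in DMSO, with 1.04 and 0.601% for RAC1i and 1.30 and 0.679% for Combo). At over 50%, MT-ND2 was at 0.853, 0.852 and 0.803 of its comparison share and MT-ND5 at 0.868, 0.739 and 0.771. At over 20 to 50% both were below 1 in DMSO (0.968 and 0.873) but above it in the treated libraries, with 1.24 and 1.27 for MT-ND2 and 1.23 and 1.55 for MT-ND5. The rare MT-ATP8 was at 1.24, 1.66 and 1.84 there, and MT-ND4L at 1.04, 1.30 and 1.62. These shares belong to the MT- UMIs that chose the members, so they carry no test.

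The genes with the largest ratios in the members were nuclear copies of mitochondrial 16S rRNA, the MTRNR2L genes. The MT- genes of the count tables include no mitochondrial rRNA, and the copies that passed the filter on counts are close to MT-RNR2, which encodes 16S rRNA. Over their aligned lengths MTRNR2L12 was 95.2% identical to MT-RNR2, MTRNR2L8 93.1% and MTRNR2L1 88.5%. The window below holds the short open reading frame known as humanin in MT-RNR2 with a few bases on either side, and its counterpart in each copy, shown because it gives the scale of the difference that a read must hold to be placed on a copy. Sequences are from GRCh38 at chrM:2629-2718 (plus strand), chr3:96617188-96617277 (minus strand), chr11:10508141-10508230 (minus strand) and chr17:22524058-22524147 (plus strand), with the copies placed by RefSeq, and capitals mark bases that differ from MT-RNR2.
MT-RNR2: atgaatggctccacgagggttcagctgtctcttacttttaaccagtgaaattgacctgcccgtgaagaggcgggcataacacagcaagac
MTRNR2L12: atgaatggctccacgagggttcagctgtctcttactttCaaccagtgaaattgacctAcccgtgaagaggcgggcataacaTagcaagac
MTRNR2L8: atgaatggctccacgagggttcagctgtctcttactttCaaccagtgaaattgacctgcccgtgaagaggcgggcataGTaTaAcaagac
MTRNR2L1: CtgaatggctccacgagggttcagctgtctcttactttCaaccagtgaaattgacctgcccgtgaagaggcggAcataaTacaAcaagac
The copies differ from MT-RNR2 at 3, 5 and 5 of these 90 bases. Other stretches can differ more, as MTRNR2L1 has 133 mismatches and 11 gaps over its 1249 aligned bases. No reads were examined, so how well those of the mitochondrial rRNA and of the copies separate was not tested.

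MTRNR2L12 was at 120 CPM in the DMSO comparison barcodes, 973 at over 20 to 50% and 12400 at over 50%. In RAC1i it was at 126, 3370 and 22300 CPM, and in Combo at 176, 6000 and 28700 CPM. Every library therefore kept the same order of classes, with no overlap between classes over the 3 libraries. The fitted log2 ratio of over 50% to the comparison barcodes was 7.12 ± 0.40 (SE derived from the fit, adjusted p = 5.03e-07 in edgeR's quasi-likelihood test). That of over 20 to 50% was 4.32 ± 0.35 (adjusted p = 8.10e-06). MTRNR2L8 and MTRNR2L1 rose by 6.65 and 6.37 on the log2 scale at over 50% and by 4.26 and 3.66 at over 20 to 50%. At 500 to 5000 UMIs, a range described below, MTRNR2L12 at over 50% was 42.4 times its comparison level in DMSO, 5.34 times in RAC1i and 8.85 times in Combo (log2 3.61, adjusted p = 0.000205). The other 8 copies were detected but did not pass the filter on counts. That filter uses the mean over the 9 sums, and the 3 copies passed it through the members, where they are high. Members were chosen for many MT- UMIs beside other UMIs, so an RNA in step with the MT- UMIs is higher in them by the choice. The ratios, p-values and order of classes of the copies are thus not independent of the rule.

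Set against the MT- UMIs of the same barcodes, the copies changed far less. For each 1000 MT- UMIs, the 11 copies together gave 2.49, 2.79 and 3.51 UMIs in the 3 classes of DMSO, 12.1, 13.3 and 9.06 in RAC1i and 17.1, 21.8 and 11.7 in Combo. The ratio between libraries was thus larger than that between classes on this scale. As a share of the UMIs without MT- genes the copies went from 0.0163 to 0.124 and 1.45% in DMSO, from 0.0217 to 0.516 and 3.25% in RAC1i and from 0.0286 to 0.889 and 4.44% in Combo. Whether these UMIs came from the nuclear loci or from mitochondrial rRNA was not tested.

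Across the 471 genes that passed the filter on counts, the class over 50% had 41 genes higher and 109 lower than the comparison barcodes (8.70 and 23.1%, adjusted p under 0.05). The class over 20 to 50%, tested on the same genes, had 93 higher and 263 lower (19.7 and 55.8%). The filter needs a mean level that would give counts in the shallow class over 50%, so most of these are abundant genes, while 66, among them the MTRNR2L genes, KCNQ1OT1, PLCG2, HEXIM1, MUC16 and PAX8, passed it only through the members, where they are high. With the same minimum set on the comparison barcodes alone 511 genes were tested, of which 8 were higher and 129 lower at over 50% (1.57 and 25.2%) and 37 higher and 356 lower at over 20 to 50% (7.24 and 69.7%). The median log2 ratio of all 471 genes was -0.47 at over 50% and -0.70 at over 20 to 50%. With TMM scaling, which centres the genes (medians -0.08 and -0.03), 52 were higher and 2 lower at over 50% (11.0 and 0.425%), and 153 higher and 132 lower at over 20 to 50% (32.5 and 28.0%). Calls of lower genes at over 50% therefore rest on the scale, and medians of gene lists below are given beside that of all genes. These calls also rest on single libraries: without Combo 1 gene and without RAC1i 11 genes were lower at over 50%, and without either 18 were higher. At over 20 to 50%, 60 were higher without RAC1i and 61 without Combo. The direct comparison of over 50% with over 20 to 50% gave 60 genes higher and 7 lower (12.7 and 1.49%, median 0.21), or 23 and 11 with TMM (4.88 and 2.34%). Without DMSO these were 128 and 38, without RAC1i 6 and 1, and without Combo 8 and 2.

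The median absolute log2 ratio over the 471 genes was 0.59 at over 50% and 0.98 at over 20 to 50%, so by this measure the class with the more extreme mitochondrial share lay nearer to the comparison barcodes. With barcodes of 500 to 5000 UMIs in every class, described below, the medians of the signed ratios were -0.64 and -0.66 and edgeR called 0 genes between both classes (10 higher and 18 lower at an unadjusted p under 0.05).

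**Figure D3:**
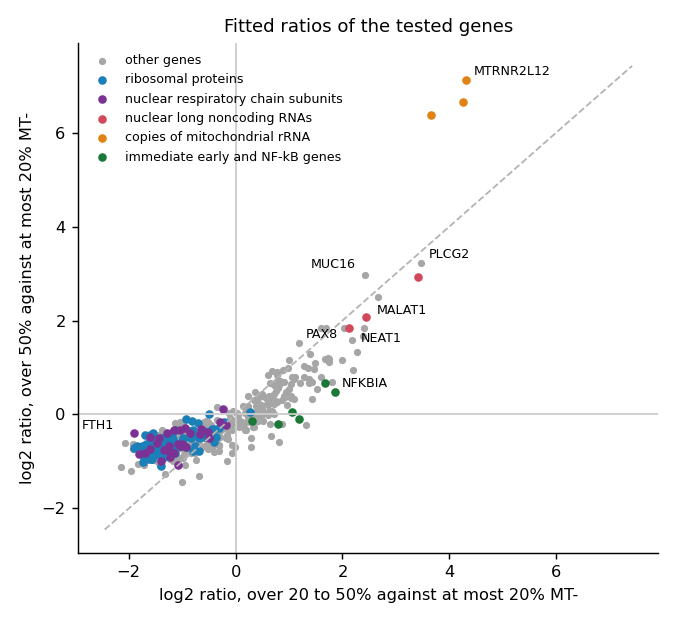
Fitted log2 ratios of 470 of the tested genes, over 20 to 50% against the comparison barcodes (horizontal axis) and over 50% against the same comparison barcodes (vertical axis), with gene lists in colour and the diagonal of equal ratios. The copies of mitochondrial rRNA lie above the diagonal, at 4.32 and 7.12 for MTRNR2L12, while most ribosomal protein and respiratory chain genes lie nearer to 0 on the vertical axis than on the horizontal axis.

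RNAs that stay in the nucleus were higher in both classes when all barcodes were used. MALAT1, the speckle RNA (GRCh38 chr11:65497640-65508073, plus strand), was at 26600, 116000 and 101000 CPM in the 3 DMSO classes in order of mitochondrial share. It was at 12800, 71800 and 60000 CPM in RAC1i and at 15900, 103000 and 67000 CPM in Combo. All 6 sums of members lay above all 3 of the comparison barcodes. MALAT1 rose by 2.07 ± 0.17 on the log2 scale at over 50% (adjusted p = 5.88e-06) and by 2.44 ± 0.17 at over 20 to 50% (adjusted p = 4.64e-06). NEAT1, the scaffold of paraspeckles (chr11:65422774-65445540, plus strand), was at 10300, 36000 and 36700 CPM in DMSO, 2960, 12900 and 11100 CPM in RAC1i and 2720, 14700 and 9410 CPM in Combo, with log2 ratios of 1.84 ± 0.17 and 2.13 ± 0.17. KCNQ1OT1, an antisense RNA that silences its imprinted neighbours (chr11:2597308-2700003, minus strand), went from 260 to 1030 and 1320 CPM in DMSO, from 66.7 to 1190 and 935 CPM in RAC1i and from 79.4 to 1330 and 530 CPM in Combo, with log2 ratios of 2.92 ± 0.41 and 3.42 ± 0.40.

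The list of 10 nuclear long noncoding RNAs had 3 members among the 471 genes, which rose in both classes on both scales. KCNQ1OT1 passed that filter only through the members. With the minimum set on the comparison barcodes MALAT1 and NEAT1 were tested, and both rose in both classes. Of all genes 1.57% rose at over 50% and 7.24% at over 20 to 50% with that minimum. Together the 10 made up 3.75% of UMIs without MT- genes in the DMSO comparison barcodes, 15.4% at over 20 to 50% and 13.9% at over 50%. The shares were 1.61, 8.67 and 7.25% in RAC1i and 1.89, 12 and 7.74% in Combo. Between over 50% and over 20 to 50% none of the 3 passed the test, with log2 ratios of -0.50 for KCNQ1OT1, -0.37 for MALAT1 and -0.29 for NEAT1.

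Leaving out the shallow class over 50% let 7118 genes be tested between over 20 to 50% and the comparison barcodes, of which 2476 were higher and 1084 lower (34.8 and 15.2%, median 0.36), or 1548 and 1756 with TMM (21.7 and 24.7%). Without RAC1i these were 1290 and 357, without Combo 1328 and 366, and without DMSO 1790 were lower. With the minimum set on the comparison barcodes alone 5990 genes were tested, of which 1530 were higher and 1078 lower (25.5 and 18.0%, median 0.11). The MTRNR2L genes, KCNQ1OT1, PLCG2, HEXIM1, MUC16 and PAX8 are among these. In the test of 7118 genes all 6 nuclear long noncoding RNAs that passed the filter rose, among them FTX (2.46 on the log2 scale, adjusted p = 0.00195) and TUG1 (1.23, adjusted p = 0.00450). Of the 286 tested genes annotated as long noncoding RNA 228 were higher (79.7%) and 12 lower, with a median of 1.96, against 32.8% higher and 15.7% lower of 6818 protein-coding genes (median 0.32). Of these 286, 169 had passed the filter only through the members. With the minimum set on the comparison barcodes 66 of 122 long noncoding RNAs were higher and 14 lower (median 0.93), against 24.9 and 18.2% of 5861 protein-coding genes (median 0.10). MALAT1 and NEAT1 were not the whole of this: the other long noncoding RNAs made up 1.62, 2.96 and 2.80% of UMIs in the 3 classes of DMSO, 3.49, 6.47 and 4.27% in RAC1i and 3.24, 6.04 and 4.43% in Combo. All values of this wider test are for barcodes of all depths, and the part of depth in them was not tested.

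Of 22 mRNAs known to be held in the nucleus by retained introns, 14 rose and none fell in that wider test (9 and 1 with TMM), beside 34.8% higher of all genes, with a median of 0.90 beside 0.36 for all genes. They included OGT, the enzyme that adds O-GlcNAc (1.80), the splicing factor RBM5 (1.68) and the cyclin CCNL2 (1.63), while SRSF3, a splicing factor, had a log2 ratio of -0.32 with adjusted p = 0.234. In the test of 471 genes 2 of 11 rose at over 50% and 6 of 11 at over 20 to 50%, beside 8.70 and 19.7% of all genes, LUC7L3, a splicing protein, among them (1.16 and 0.99). At 500 to 5000 UMIs these were 2 and 1 of 11, beside 3.61 and 7.64%, so that the count at over 20 to 50% was then near that of all genes. CCNL1 passed the filter of the 471 genes only through the members. With the minimum set on the comparison barcodes 1 of 11 rose at over 50% and 5 of 11 at over 20 to 50%. Of all genes 1.57 and 7.24% rose there.

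Protein-coding genes differed by length. Of 4 groups of equal size by exonic length, the one with the shortest genes (median 2396 bases) had 9.78% higher and 39.5% lower at over 20 to 50%, and that with the longest (median 11864 bases) 56.0% higher and 3.23% lower. The medians of the log2 ratio over the 4 groups were -0.51, 0.13, 0.58 and 0.82, and -0.62, -0.08, 0.35 and 0.64 with the minimum set on the comparison barcodes. MUC16, the very large mucin that carries the CA125 antigen, had the highest ratio of the secreted and cell surface proteins at over 50%. It was at 146, 529 and 851 CPM in DMSO, 43.4, 259 and 358 CPM in RAC1i and 37.3, 274 and 436 CPM in Combo, with log2 ratios of 2.97 ± 0.28 at over 50% and 2.42 ± 0.24 at over 20 to 50%. PAX8, a lineage transcription factor of the Müllerian epithelium, rose by 1.52 and 1.18 on the log2 scale. Both passed the filter of the 471 genes only through the members.

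Genes of the cytosolic ribosome were lower in the members. Of 78 ribosomal protein genes tested none was higher and 49 were lower at over 50%, beside 23.1% of all genes, with a median of -0.60 beside -0.47, and with TMM 2 were lower. At over 20 to 50% none was higher and 69 were lower, beside 55.8% (median -1.28 beside -0.70), and with TMM 1 was higher and 49 lower. Between over 50% and over 20 to 50%, 39 of the 78 were higher and none lower (17 and 0 with TMM), beside 12.7% higher of all genes. None of these 39 passed at 500 to 5000 UMIs or without the library term, and in that range the shares at over 20 to 50% and over 50% were 8.89 and 11.1% of UMIs in DMSO, 12.1 and 12.7% in RAC1i and 10.9 and 10.9% in Combo. Together the ribosomal protein genes made up 23.5% of UMIs without MT- genes in the DMSO comparison barcodes, 11% at over 20 to 50% and 16.9% at over 50%. The shares were 26.1, 12.1 and 16.9% in RAC1i and 25.9, 10.9 and 16.1% in Combo, so the lowest share was at over 20 to 50% in each library. RPL38, a protein of the large subunit, had the highest ratio of the list at over 50% (0.05, adjusted p = 0.862), but at 500 to 5000 UMIs it was lower there (-1.16, adjusted p = 0.00687).

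None of the nuclear partners of the MT- genes rose in the test of 471 genes. Of 31 nuclear subunits of the respiratory chain tested none was higher and 7 were lower at over 50% (none in either direction with TMM), a share near the 23.1% of all genes, with a median of -0.61 beside -0.47. At over 20 to 50%, 26 were lower and none higher (14 lower with TMM), beside 55.8% lower of all genes, with a median of -1.07 beside -0.70. In the wider test 52 of 78 were lower and 1 higher (69 lower with TMM), beside 15.2% lower of all genes, with a median of -1.04 beside 0.36. COX6A1, a subunit of cytochrome oxidase, had the lowest ratio at over 50% (-1.07, adjusted p = 0.0245), and NDUFB1, of complex I, the highest (0.11, adjusted p = 0.677). CHCHD2, a small protein of the mitochondrial intermembrane space, fell by 2.15 on the log2 scale at over 20 to 50%, the lowest of all 471 genes there, from 900 to 377 CPM in DMSO, from 971 to 178 CPM in RAC1i and from 978 to 142 CPM in Combo. Mitochondrial ribosomal proteins had 55 of 77 lower and none higher in the wider test (median -0.95 beside 0.36), with MRPS34 lowest at over 50% (-1.09).

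The genes for keeping and reading the mitochondrial genome itself had 7 higher and 5 lower of 20 in the wider test, or 2 and 5 with TMM, and the share of higher genes was near the 34.8% of all genes. POLG, the mitochondrial DNA polymerase, had a log2 ratio of 1.42 (adjusted p = 0.0138), but passed the filter only through the members, and TFAM, which packs mitochondrial DNA and starts its transcription, one of -0.88 (adjusted p = 0.0291). SLIRP, which binds mitochondrial mRNAs, was at -1.45 (adjusted p = 0.00634), and POLRMT, the mitochondrial RNA polymerase, at 0.57 with adjusted p = 0.156. With the minimum set on the comparison barcodes 6 of 16 were higher and 5 lower.

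Ferritin genes differed between both classes of members. FTH1, the heavy chain of ferritin, was at 34200, 10800 and 21200 CPM in the 3 DMSO classes, 22600, 4360 and 14100 CPM in RAC1i and 20700, 4480 and 15000 CPM in Combo. The lowest sum of each library was that at over 20 to 50%, and the sum at over 50% lay between the other two. Its log2 ratio to the comparison barcodes was -2.07 ± 0.19 at over 20 to 50% (adjusted p = 1.41e-05) and -0.61 ± 0.18 at over 50% (adjusted p = 0.0298, and 0.498 with TMM), and it was 1.46 higher at over 50% than at over 20 to 50% (adjusted p = 0.00102). This last call was lost at 500 to 5000 UMIs (0.88, adjusted p = 0.753) and without the library term (1.36, adjusted p = 0.126), and at 500 to 5000 UMIs FTH1 at over 50% was at 0.417 of its comparison level in DMSO, 1.13 in RAC1i and 1.10 in Combo. FTL, the light chain, had ratios of -1.92 and -0.62, the latter with adjusted p = 0.0697. Other abundant mRNAs fell too, among them BTF3, a factor that binds nascent chains (-1.96 and -1.20), YWHAB, a 14-3-3 protein (-1.32 and -1.27), and CFL1, which severs actin (-1.45 and -1.02). Within 500 to 5000 UMIs CFL1 kept both calls, BTF3 kept that at over 20 to 50% but not that at over 50% (-0.53, adjusted p = 0.324), and YWHAB lost both (-0.59 and -0.68, adjusted p = 0.102 and 0.176). All 6 tested glycolysis genes were lower at over 20 to 50% (3 with TMM) and 4 at over 50% (none with TMM), beside 55.8 and 23.1% of all genes, with medians of -1.16 and -0.78 beside -0.70 and -0.47. Of 17 cytoskeleton genes 13 were lower at over 20 to 50%, with a median of -0.78 close to that of all genes, and with TMM 2 were higher and 4 lower, beside 32.5 and 28.0%.

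Along the mitochondrial share the composition of the other UMIs did not run in 1 direction. In DMSO the nuclear long noncoding RNAs took 2.53% at 0 to 5% MT- UMIs, rose to 25.4% at 40 to 50% and 25.7% at 50 to 60%, and were back at 6.13% at 80 to 90% and 4.05% at 90 to 100%. Ribosomal protein genes ran the other way, from 25% to 7.41 and 7.4%, and then 23.2 and 24.8%. The treated libraries showed the same turn on far fewer barcodes: ribosomal protein genes took 26.3% in RAC1i at 0 to 5%, 9.73% at 30 to 40% and 21.7% at 80 to 90%, and 26.0, 11.2 and 24.3% in Combo. Of the 7 lists followed in bins only the copies of mitochondrial rRNA were higher with each bin in all 3 libraries, an order that is not independent of the rule. At 90 to 100% the copies took 4.33% of the DMSO, 7.69% of the RAC1i and 9.66% of the Combo UMIs. The barcodes over 80% thus lay closer to the comparison barcodes of their library in both shares than the class over 20 to 50% did, with medians of 106 to 262 UMIs without MT- genes. RNA from outside cells has no profile of its own in the counts used here, and its part in the barcodes over 80% was not tested.

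**Figure D4:**
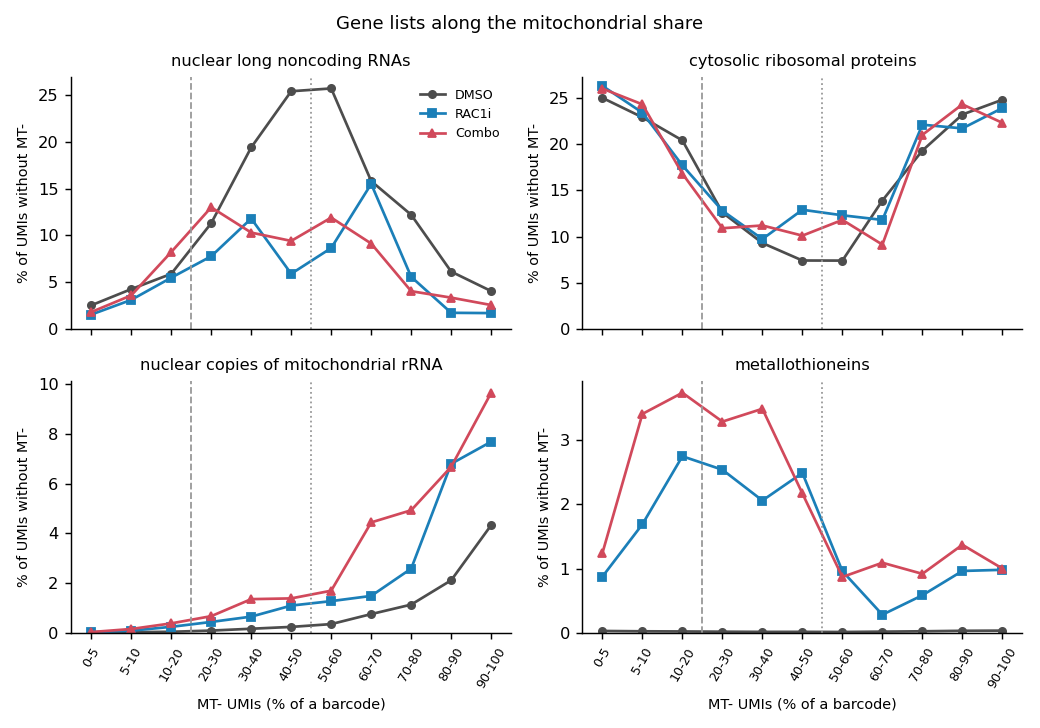
Share of UMIs without MT- genes (vertical axes, %) held by nuclear long noncoding RNAs, cytosolic ribosomal proteins, copies of mitochondrial rRNA and metallothioneins in bins of the MT- share of a barcode (horizontal axes, %), 1 line per library, with lines at 20% and 50%. In DMSO the noncoding RNAs peak at 25.7% where the ribosomal proteins are lowest at 7.4%, and at 80 to 90% they are at 6.13 and 23.2%, against 2.53 and 25% at 0 to 5%; treated bins above 50% hold 12 to 58 barcodes.

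Because members hold few UMIs, the comparison on the 471 genes was repeated with barcodes of 500 to 5000 UMIs without MT- genes in every class. The wider test was not repeated. This brings the classes into 1 range but does not match them: the medians of comparison barcodes, over 20 to 50% and over 50% were 1752, 3068 and 887 UMIs in DMSO, 2200, 1120 and 679 in RAC1i and 2193.5, 1301 and 756 in Combo. In DMSO 1715 comparison barcodes, 259 members at over 20 to 50% and 295 at over 50% fell in this range, against 1819, 343 and 17 in RAC1i and 1608, 361 and 15 in Combo. At over 20 to 50% then 36 genes were higher and 214 lower (7.64 and 45.4%, median -0.66). The ribosomal protein genes were lower for 77 of 78 (median -1.14), and the respiratory chain subunits for 28 of 31 (median -1.07). MTRNR2L12 was higher (2.05, adjusted p = 0.00240), as was NEAT1 (1.90, adjusted p = 0.0129). MALAT1 was 14.2 times its comparison level in DMSO, 2.63 times in RAC1i and 2.03 times in Combo, and with this spread did not pass (1.93, adjusted p = 0.0585). At over 50% in this range 17 genes were higher and 132 lower (3.61 and 28.0%, median -0.64), on 17 RAC1i and 15 Combo barcodes. Of the 3 noncoding RNAs only NEAT1 passed there (2.11, adjusted p = 0.0149). MALAT1 had a log2 ratio of 2.11 (adjusted p = 0.0592) and KCNQ1OT1 one of 1.55 (adjusted p = 0.0910), the latter at 0.707 of the comparison level in Combo (95% exact interval 0.284 to 1.46). In the DMSO comparison barcodes the noncoding RNA list took 1.44% of UMIs at 500 to 5000 UMIs against 3.75% in all of them, while in RAC1i it took 3.36% against 1.61% and in Combo 5.74% against 1.89%.

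**Figure D5:**
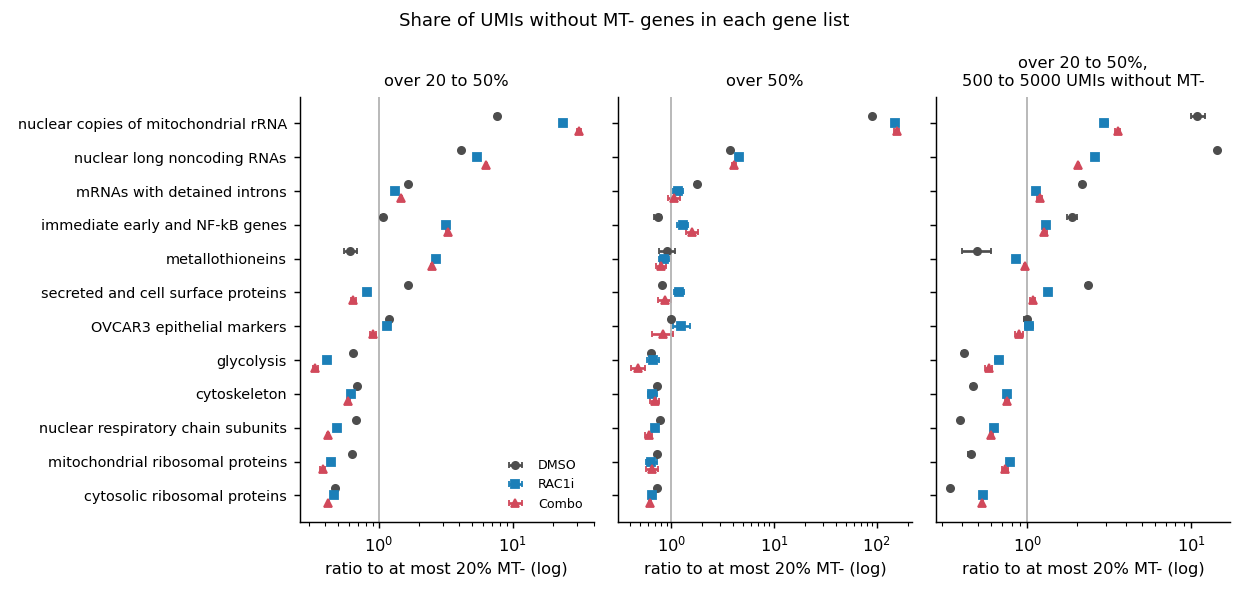
Ratio of a gene list's share of UMIs without MT- genes to its share in the comparison barcodes of the same library (horizontal axes, log scale; bars are 95% exact intervals, counting error only) at over 20 to 50%, at over 50%, and at over 20 to 50% within 500 to 5000 UMIs. Copies of mitochondrial rRNA and nuclear noncoding RNAs lie right of 1 and ribosomal proteins left of 1 in each panel and library; metallothioneins in the treated libraries at over 20 to 50% move from 2.67 and 2.49 to 0.854 and 0.967 in that range.

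Several rises of the treated members did not pass within this range. PLCG2, a phospholipase of receptor signalling, was at 230 CPM in the RAC1i comparison barcodes, 5640 CPM at over 20 to 50% and 2750 CPM at over 50%, and at 201, 5220 and 7420 CPM in Combo, but at 24.1, 70.1 and 45.2 CPM in DMSO. It rose by 3.47 ± 0.68 on the log2 scale at over 20 to 50% (adjusted p = 0.000840) and by 3.22 ± 0.71 at over 50% (adjusted p = 0.0141). PLCG2 passed the filter of this test only through the members, where it is high, so these p-values are not independent of the filter. Within 500 to 5000 UMIs its ratio at over 20 to 50% in DMSO was 1.41, and the RAC1i and Combo ratios were 0.951 and 1.06 (log2 0.16, adjusted p = 0.639). At over 50% the ratios in this range were 0.861, 0.853 and 1.84 (log2 0.22, adjusted p = 0.571). Shallow comparison barcodes of the treated libraries thus held PLCG2 near the level of members at over 20 to 50%, while the few Combo members over 50% held more of it (9230 against 5020 CPM).

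The same held for metallothioneins, which bind zinc and copper, and in part for immediate early and NF-kB genes. Metallothioneins took 0.907% of UMIs in the RAC1i comparison barcodes and 2.42% at over 20 to 50%, and 1.30 and 3.24% in Combo, against 0.0231 and 0.0142% in DMSO. Their ratios of 2.67 and 2.49 in the treated libraries became 0.854 and 0.967 at 500 to 5000 UMIs. At over 50% in that range metallothioneins were low, at 0.491 of the comparison share in DMSO, 0.125 in RAC1i and 0.212 in Combo, and both tested genes were lower (MT2A -2.22, adjusted p = 0.00562, and MT1X -2.07, adjusted p = 0.00545). NFKBIA, the inhibitor of NF-kB, was at 1070, 6120 and 2150 CPM in the 3 classes of RAC1i and at 993, 6070 and 1560 CPM in Combo, while in DMSO it was at 116, 141 and 112 CPM. It rose at over 20 to 50% (1.86, adjusted p = 0.000951) but at 500 to 5000 UMIs had a log2 ratio of 0.34 with adjusted p = 0.244. In the wider test 16 of 24 genes of this list were higher and 1 lower (13 and 2 with TMM), beside 34.8 and 15.2% of all genes and with a median of 1.11 beside 0.36, with FOSB at 2.25, EGR1 at 1.92 and the lower gene IL6 at -1.45. At 500 to 5000 UMIs 2 of 6 were higher at over 20 to 50%, beside 7.64% of all genes. They were JUN, a subunit of AP-1 (1.00, adjusted p = 0.00848), and IER3 (0.91, adjusted p = 0.0362). Both passed the filter of this smaller test only through the members, so this count is not independent of the filter. At over 50% none of the 6 tested passed (median -0.03 beside -0.47), and the share of the whole list was at 0.738 of the comparison share in DMSO, 1.30 in RAC1i and 1.60 in Combo, or 1.37, 0.625 and 0.810 at 500 to 5000 UMIs. GADD45B and IER3, both stress-induced, were lower there than at over 20 to 50% with all barcodes (-1.54 and -1.28), and neither call was kept at 500 to 5000 UMIs or without the library term.

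The genes that the study named for its clusters of oxidative phosphorylation genes were among those that rose, as a list chosen by the study on these samples. The study's top genes of these clusters also include MT-CO1, MT-CO2, MT-CO3, MT-ND5 and MT-ND6, which are left out of the list here. The rule for members uses these MT- genes too, so the counts of this list are not independent of the rule. Of 14, 8 were tested, and 6 were higher at over 50% and 8 at over 20 to 50%, with none lower, beside 8.70 and 19.7% higher of all genes. Of the 8, 6 passed the filter only through the members, and the other two, MALAT1 and NEAT1, rose in both classes also with the minimum set on the comparison barcodes. The list includes MTRNR2L12, MALAT1, NEAT1, KCNQ1OT1 and PLCG2. In the wider test, where all 14 reach the minimum in the comparison barcodes, 12 were higher, beside 34.8%, HEXIM1, an inhibitor of transcription elongation, among them (2.27 in the test of 471 genes, adjusted p = 0.00100), and CP, which encodes ceruloplasmin, had a log2 ratio of 0.23 with adjusted p = 0.618. Within 500 to 5000 UMIs 4 of 8 were higher at over 20 to 50% and 2 of 8 at over 50%, beside 7.64 and 3.61% of all genes.

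Single barcodes differed in the same directions after thinning to 1 depth. Each barcode was thinned at random to 300 UMIs without MT- genes, which left out 552 DMSO, 95 RAC1i and 68 Combo members that held fewer, most of them over 50%, and no comparison barcode. After thinning, NEAT1 was found in 86.0% of DMSO members and 64.3% of comparison barcodes, in 73.6 and 50.5% in RAC1i and in 73.9 and 47.9% in Combo; unthinned, the shares were 78.1 and 84.2%, 78.8 and 97.2% and 82.3 and 96.4%. KCNQ1OT1 was found in 26.1 and 6.38% in DMSO, 27.3 and 4.73% in RAC1i and 26.4 and 4.84% in Combo, and MTRNR2L12 in 61.9 and 3.89%, 71.1 and 9.05% and 76.6 and 12.3%. RPS12, a ribosomal protein, was found in 51.8% of members and 76.2% of comparison barcodes in DMSO, in 30.1 and 70.3% in RAC1i and in 33.6 and 70.5% in Combo. Unthinned, KCNQ1OT1 was in 41.3 and 66.4%, 44.6 and 53% and 51.2 and 60.2%, MTRNR2L12 in 97.0 and 69.0%, 96.6 and 87.6% and 99.0 and 93.1%, and RPS12 in 82.8 and 99.5%, 59.6 and 98.2% and 67.3 and 97.6%. Thinning to 600 UMIs raised most shares, KCNQ1OT1 to 46.7 and 11.9% in DMSO and MTRNR2L12 to 64.7 and 7.98%, with NEAT1, KCNQ1OT1 and MTRNR2L12 higher and RPS12 lower in the members of all 3 libraries. All cells were of 1 line, so a background share could not be read from a cell type without these genes.

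Members kept part of the difference between treatments. CXCL1, a chemokine, was 8.98 times higher in RAC1i members than in DMSO members (95% exact interval 7.01 to 11.6, from 182 and 102 UMIs) and 9.52 times higher in the comparison barcodes. PAX8 was at 0.158 of its DMSO level in RAC1i members (0.124 to 0.198) and at 0.141 in the comparison barcodes, and in Combo at 0.106 (0.0794 to 0.138) and 0.123. SIRT7, a nuclear deacetylase, was 3.12 times higher in RAC1i members (2.60 to 3.74) and 4.45 times in the comparison barcodes. For these genes the direction was shared by members and comparison barcodes, also at 500 to 5000 UMIs, but the sizes then moved apart. CXCL1 was at 6.91 times in members and 14.4 in comparison barcodes, SIRT7 at 2.40 and 6.84, and PAX8 at 0.115 and 0.201, each for RAC1i over DMSO.

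Other genes differed more between treatments in the members, or less. MT2A, a metallothionein, was 177 times higher in RAC1i members than in DMSO members and 46.7 times in the comparison barcodes, and at 500 to 5000 UMIs the ratios were 216 and 129. SOX2, a stem cell factor, was at 1.28 of the DMSO level in RAC1i members (0.963 to 1.67), where the comparison barcodes gave 0.224, but within 500 to 5000 UMIs these ratios were 1.61 and 1.40. In Combo members SOX2 was at 0.703 of the DMSO level (0.491 to 0.983), and in the comparison barcodes at 0.181. OVGP1, the oviductal glycoprotein, was 5.03 times higher in RAC1i members (1.65 to 15.4, from 8 and 8 UMIs) and 74.1 times in the comparison barcodes (51.2 to 112). ALDH1A1, a marker of ovarian cancer stem cells, gave 45 UMIs in DMSO members, 0 in RAC1i and 1 in Combo, which puts its RAC1i level at no more than 0.430 of that of DMSO by the exact interval, and it was at 0.112 in the comparison barcodes. These are ratios of 1 library to 1 library, with no test.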

How the data were processed

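The 3 libraries were made with the 10x Chromium 3′ v3.1 chemistry and sequenced on a NovaSeq 6000. Per barcode, the deposited tables hold unnormalized UMI counts of 36601 genes, which the authors made with Cell Ranger 4.0.0 at default settings on GRCh38. The EZH2i library was not analysed here. Barcodes with at least 500 UMIs were classed by the share of their UMIs on the 13 MT- genes, at 20% and 50%. The members and the gene lists were chosen with earlier results of these data known.

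UMIs were summed by library and class (9 sums), and values are CPM of the UMIs without MT- genes. These totals were 188822854 to 249493778 UMIs for the comparison barcodes, 516390 to 2183527 at over 20 to 50% and 32085 to 597145 at over 50%. Genes were tested with the quasi-likelihood test of edgeR 4.0.16 (R 4.3.3) with class and library as terms, no further scaling and Benjamini-Hochberg adjustment at 0.05, on genes whose mean CPM over the sums would give 10 UMIs in the median sum over 50%, with 4 residual degrees of freedom. The p-values measure the spread of these 3 libraries. Each SE is the absolute log2 ratio divided by the square root of the F statistic of the test. It is not the standard error of the ratios of the 3 libraries. A test on the 6 sums of the classes up to 50% used the same minimum for over 20 to 50%. In simulated counts for the 471 genes the test called 97% of 2-fold and 5.54% of unchanged genes at over 50%, and 100% and 1.48% at over 20 to 50%; for 7118 genes it called 81% and 0.173%. The simulated counts had 1 spread for all genes, the same change in all 3 libraries and unchanged genes that kept their share. Measured ratios differed between libraries and moved with the scaling, so these rates may not hold for them. Ratios between sums have exact conditional intervals and shares Clopper-Pearson intervals (95%), which cover counting error only. UMIs of 1 barcode are not independent, and a sum weights barcodes by their UMIs. Thinning to 300 UMIs used a fixed seed.

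Python 3.11.15, numpy 2.4.6, scipy 1.17.1 and pandas 2.3.3 were used. Gene positions are from GENCODE 44 (99.36% of identifiers matched), those of the MTRNR2L genes from RefSeq. Named genes are all MT- genes, the 10 highest and 10 lowest genes called at over 50% with the same direction in all 3 libraries, 5 and 5 for the other comparisons, the extremes of each list, and all members of the lists of rRNA copies, nuclear noncoding RNAs and study genes; some genes of this rule are not reported here. Members of lists named in the test of 7118 genes, and RPS12, were chosen after their values were seen. No doublet caller was run. The alternatives were TMM, the minimum set on the comparison barcodes alone, a total with MT- genes, DESeq2 1.42.0, no or a stricter filter, only the sums compared, no library block, each library left out, other limits on barcodes and depth, and thinning to 600 UMIs.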

Additional observations from a re-analysis of the deposited data

Results flagged for a closer look

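In 6 gene lists the DMSO members lay on one side of their comparison barcodes and the members of both treated libraries on the other, with the 95% exact interval of each ratio clear of 1. With 1 library per treatment these differences were not tested. At over 20 to 50% MT- UMIs, metallothioneins were at 0.615 of the comparison share in DMSO and at 2.67 in RAC1i and 2.49 in Combo. Genes of secreted and cell surface proteins were at 1.66, 0.812 and 0.647, those of translocation and folding in the endoplasmic reticulum at 1.28, 0.680 and 0.611, and those of S phase and DNA replication at 0.865, 1.09 and 1.17. At over 50% the immediate early and NF-kB genes were at 0.738 in DMSO, 1.30 in RAC1i and 1.60 in Combo (1.37, 0.625 and 0.810 within 500 to 5000 UMIs without MT- genes, where the sides of 1 were swapped), and snoRNA host genes at 1.16, 0.676 and 0.605. Within 500 to 5000 UMIs without MT- genes the values at over 20 to 50% were 0.490, 0.854 and 0.967 for metallothioneins and 2.33, 1.34 and 1.08 for secreted and cell surface proteins, so that all 3 libraries were then on the same side of 1 for both lists. For the endoplasmic reticulum list they were 1.33, 0.972 and 0.956.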

How the results depend on the processing

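Counts of called genes moved with the setting in 62 of 106 cases, while medians of gene lists at over 50% against the comparison barcodes moved by no more than the spread of the libraries in 267 of 340. With TMM these medians moved for 15 lists and stayed for 7. At 500 to 5000 UMIs they moved for 14 and stayed for 8, and with MT- genes in the total all 22 moved. For over 50% against the comparison barcodes (41 higher, 109 lower), a total with MT- genes gave 5 and 455, no filter 699 higher, a minimum of 50 UMIs 5 and 48, DESeq2 178 lower, the 6 sums of the classes compared 190 lower, TMM 2 lower, barcodes of 500 to 5000 UMIs 17 higher, and classes 5 points away from the limits 20 and 22; leaving out 1 library gave 18 to 50 higher and 1 to 185 lower. For over 20 to 50% (93 and 263), TMM gave 153 and 132, the total with MT- genes 47 higher, no filter 6818 and 1058, the minimum of 50 UMIs 9 and 59 and 500 to 5000 UMIs 36 higher; leaving out 1 library gave 60 to 121 higher and 213 to 300 lower. With 7118 genes (2476 and 1084), TMM gave 1548 and 1756, and leaving out 1 library 1290 to 3157 higher and 357 to 1790 lower (1328 and 366 without Combo); this wider test was added after seeing the data. For over 50% against over 20 to 50% (60 and 7), TMM gave 23 and 11, the total with MT- genes 2 and 461, DESeq2 102 and 17, no filter 27 and 13, the minimum of 50 UMIs 3 lower, the 6 sums 13 lower and the distance of 5 points 162 and 25; leaving out 1 library gave 6 to 128 higher and 1 to 38 lower.

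The library block pairs the classes, since sums of 1 library come from 1 culture. Without the block 4 genes were higher and 2 lower at over 50%, 41 were higher at over 20 to 50%, and between both classes of members edgeR called 0 and 0 of 471, with 89 higher and 5 lower at an unadjusted p under 0.05. At 500 to 5000 UMIs edgeR also called 0 and 0 there, with 10 and 18 at an unadjusted p under 0.05; 15 and 17 treated barcodes over 50% limit that setting. With the minimum of 10 UMIs set on the level in the comparison barcodes alone, an alternative chosen after seeing the data, 8 genes were higher at over 50%, 37 at over 20 to 50% and 1530 in the wider test; that filter leaves out genes that reach the minimum only through the members. Thinning to 600 in place of 300 UMIs moved 46 of 48 shares of barcodes with a UMI. The cause of the other moves was not tested.

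Of the named genes, 16 of 921 values at over 50%, 7 of 921 at over 20 to 50% and 2 of 145 between both turned sign where the main or the alternative fit passed the threshold. Changes of sign that passed in neither fit were not counted. With the MT- genes in the total, log2 ratios at over 50% were -0.15 for MALAT1, -0.38 for NEAT1, -1.75 for NFKBIA, -1.30 for THUMPD3-AS1, -1.07 for LUC7L3, -0.39 for SNHG25, -2.18 for RPL38, -2.12 for NDUFB1, -1.73 for P4HB, -1.56 for JUN, -1.85 for DDIT3, -1.56 for CENPF, -1.86 for CDH6, -0.72 for PAX8 and -2.21 for CD24, and between both classes -0.32 for FTH1 and -0.28 for ATP5MC3; that total holds the UMIs that chose the classes. At 500 to 5000 UMIs RPL38 was at -1.16 at over 50%, and at over 20 to 50% LAPTM4B was at 0.26, HSPB1 at -0.66, SLC3A2 at 0.76 and MT2A at -0.34. With TMM at over 20 to 50%, TUBA1C was at 0.15, HSP90AB1 at 0.20 and KRT18 at 0.13.

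A limit of 10% in place of 20% gave shares of 25.2, 10.3 and 11.9% in DMSO, RAC1i and Combo, and a minimum of 1000 UMIs 3.16% over 20% and 0.661% over 50% in RAC1i and 4.32% over 20% in Combo. The setting with no minimum of UMIs gave the same barcodes, since none held fewer than 500.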

Other observations

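Apoptosis genes were low in counts and entered the test of 7118 genes only. Of 15 targets of p53 and members of the BCL2 family, 6 were higher and 3 lower at over 20 to 50% MT- UMIs (1 and 6 with TMM), near the 34.8 and 15.2% of all genes. With the minimum set on the comparison barcodes 4 of 14 were higher and 3 lower (28.6 and 21.4%), beside 25.5 and 18.0% of all genes. Of the 6 higher ones BCL2L11 and PMAIP1 passed the filter only through the members. The higher ones were MCL1 (log2 ratio 1.01), a survival factor, BCL2L11 (1.30) and PMAIP1 (1.80), which promote cell death, MDM2 (0.99), which degrades p53, and GADD45A (0.71) and ZMAT3 (0.75), both p53 targets. The lower ones were BAD (-1.20), BID (-1.01) and BNIP3 (-0.76), which also promote cell death. Genes of S phase and DNA replication had 4 higher and 5 lower of 19 (0 and 8 with TMM, median -0.20), and those of G2 and mitosis 4 and 10 of 25 (2 and 14 with TMM, median -0.45), with CENPF, a kinetochore protein, at 1.21 and CKS1B, a partner of cyclin-dependent kinases, at -1.63 in the test of 471 genes. CENPF passed the filter of the 471 genes only through the members. With that minimum set on the comparison barcodes all 3 tested genes of G2 and mitosis were lower at over 20 to 50%, beside 69.7% of all genes. At over 50%, 1 of the 3 was lower, beside 25.2% of all genes. The share of the whole list at over 20 to 50% differed between libraries at 500 to 5000 UMIs without MT- genes. It was at 0.736 of the comparison share in DMSO, 1.07 in RAC1i and 1.01 in Combo. Histone genes had 13 higher and 5 lower of 30 (median 0.55), but 8 and 9 with TMM (median 0.19), and 4 and 5 of 19 with the minimum set on the comparison barcodes (median -0.34).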
